A study of Mus musculus with 4 samples.

Results

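The genes described are 39 genes of the synaptic vesicle and its release machinery, taken by symbol from a table of 22770 genes, and 37 of the 39 passed a filter on low values that left 15399 genes for testing. RNA was measured by sequencing in embryonic cerebral cortex at day 16.5 of mouse development. There were 2 wild-type libraries from littermates and 2 libraries from Pax6 sey/sey embryos, which are homozygous for the small eye allele in every cell of the body. Both genotypes were on a mixed background of C57BL/6J, 129S6 and CD1, and no other allele or treatment is given. Pax6 codes for a transcription factor that cortical progenitor cells express, and the question is how cortical RNA differs when it is mutant. The labels do not say whether each library is a separate embryo, so p-values measure the spread between these libraries, which may be technical in part.

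Neurons release transmitter from small vesicles that are filled, docked and primed at the active zone of the axon terminal. Fusion is driven by SNARE proteins (synaptobrevin on the vesicle, syntaxin and SNAP-25 on the plasma membrane), calcium is sensed by synaptotagmins, and complexins hold the assembled SNAREs ready. In embryonic cortex these genes are switched on as neurons leave the cell cycle, before most synapses have formed.

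Values are FPKM, fragments divided by exon length and by the library's mapped total, so levels of different genes can be compared per length. Differences are mutant minus wild type on the log2(FPKM + 0.5) scale, tested with limma over all 15399 genes, and a gene was called at a Benjamini-Hochberg adjusted p under 0.05. Pax6 RNA was 28.8 and 27.0 FPKM in wild-type and 101 and 120.3 FPKM in mutant cortex, and since the small eye allele carries a point mutation and is still transcribed, this level does not check the genotype. The column totals lay between 579698 and 593256 FPKM. Absolute depth is unknown, but the lowest values put the depth at 0.782 to 1.19 times that of wild-type library 1. Mutant library 1 stood apart in Xist, at 350.1 FPKM against 0.079 to 0.224 elsewhere, and in the Y-linked gene Ddx3y, listed at 0 against 16.5 to 23.3 FPKM. By these genes mutant library 1 read as female and the other libraries as male, so the mutant libraries were not from the same embryo. The fit held genotype only, without sex. The summed level of 5 meningeal collagen and matrix genes was 26.4 FPKM in that library, 5.83 in mutant library 2 and 2.40 to 3.60 in the wild types. The dissected tissue carried markers of the cortical glutamatergic lineage: 10 glutamatergic markers summed to 1231 and 1319 FPKM in the wild types. That list is not of neurons alone, since it holds the intermediate progenitor gene Eomes. In every library 3 choroid plexus markers summed to 1.85 FPKM or less, while 6 erythroid markers summed to 1558 to 1815 FPKM. The sum of 7 striatal markers was 30.6 and 38.55 FPKM in wild-type and 17.1 and 19.2 FPKM in mutant cortex. Most of that sum was Ppp1r1b, at 21.6 and 28.3 FPKM in wild-type and 8.80 and 10.9 FPKM in mutant cortex. The striatal list was mixed: of the 6 tested markers, 4 differences were below 0 and 2 above.

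Synpr and Rab3c were the called members of the release machinery, and most others had slightly lower mutant values without a call. Of the 37 tested members, 1 rose (Synpr) and 1 fell (Rab3c). These 2 calls are 5.41% of the tested members, near the 3.48% called among all tested genes. In 25 of the 37, or 67.6%, both mutants lay below both wild types, against 25.8% of all tested genes. In 3 of the 37, or 8.11%, both mutants lay above, against 25.8% of all tested genes. The groups did not overlap in 28 of the 37 (75.7%), against 51.6% of all tested genes. At an unadjusted p under 0.05, 13 of the 37 (35.1%) were lower and 2 (5.41%) higher, together 15 (40.5%), against 9.23%, 10.2% and 19.5% of all tested genes. The median difference was -0.24 over the tested members and 0.00 over all tested genes, and 32 of the 37 differences were below 0. Among the 25 members the mutant mean ran from 0.614 to 0.949 of the wild-type mean, with 18 of them between 0.75 and 0.9.

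The members also moved together between libraries of the same genotype, which bears on how that count is read. Wild-type library 2 was below wild-type library 1 in 28 of the 37 tested members (75.7%), against 49.6% of all tested genes. Mutant library 2 was below mutant library 1 in 27 of the 37 (73.0%), against 49.9%. The median log2 ratio was -0.08 between the wild types and -0.13 between the mutants. The genotype difference of -0.24 was therefore larger than either within-group shift, but of the same order, and the 37 genes are not independent observations. Without mutant library 2 the median was -0.14, and without each of the other libraries it lay between -0.30 and -0.22. The part that the within-group shift plays in the genotype difference was not tested.

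**Figure D1:**
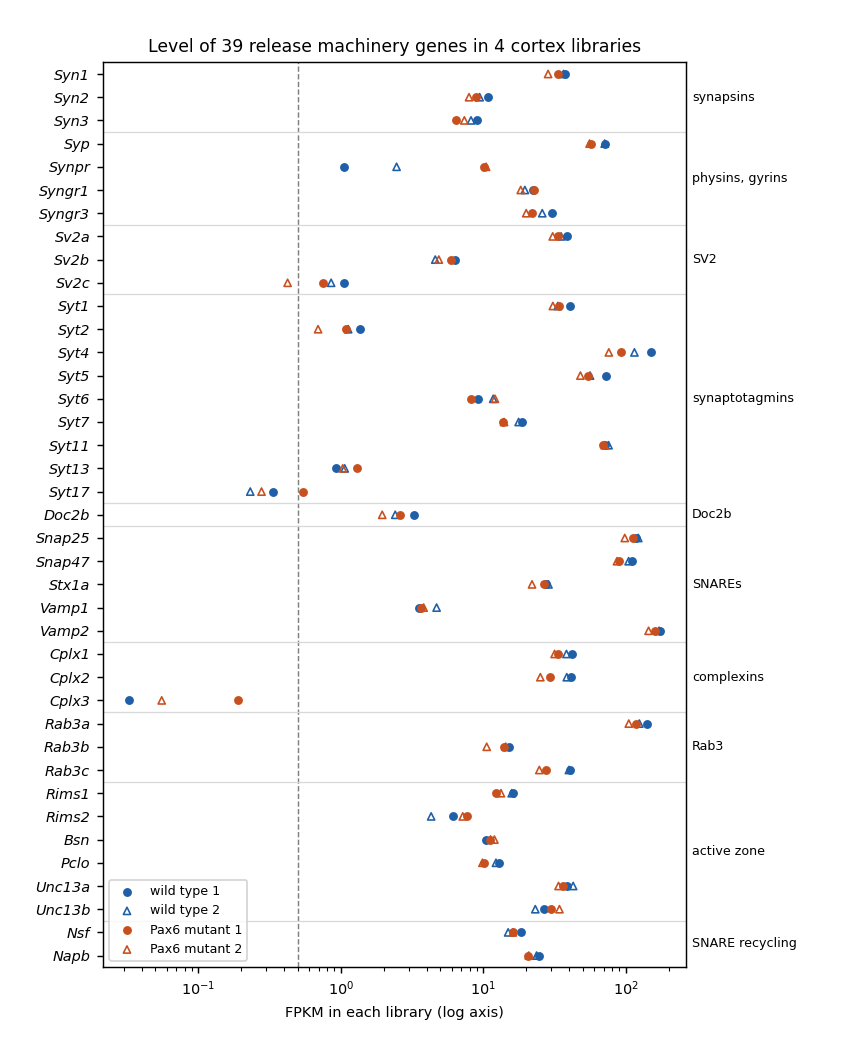
FPKM (log axis) of the 39 genes in each of the 4 libraries, wild types in blue and Pax6 mutants in orange, grouped by role, with a dashed line at the filter of 0.5 FPKM; a Cplx3 value listed at 0 is not drawn. The wild-type values of Synpr are 1.05 and 2.46 FPKM and its mutant values 10.1 and 10.5, and all 5 members at 100 FPKM or more in both wild types have both mutants below both wild types.

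The stretches upstream of 3 members are shown because Synpr and Rab3c were the called genes and because Syn1 was the member that held an RE1 arm and a cyclic AMP response element. RefSeq (GRCm38.p6) start sites were found for 28 of the 39 members, with 38 windows of 250 bases before a start. Capitals mark matches on either strand to 5 motifs: the homeodomain core TAATTA, the cyclic AMP response element TGACGTCA, the GC box GGGCGG, the TATA box TATAAA and the left arm of the RE1 element, TTCAGCACC. A match on the other strand appears as the reverse complement, and no matches overlapped in the stretches shown. RE1 is the element bound by the repressor REST. The Synpr stretch is chr14:13284530-13284779 on the plus strand and the Rab3c stretch is chr13:110280207-110280456 on the minus strand. The Syn1 stretch is chrX:20921005-20921168 on the minus strand and leaves out the bases of its window that are exon in GENCODE.
Synpr: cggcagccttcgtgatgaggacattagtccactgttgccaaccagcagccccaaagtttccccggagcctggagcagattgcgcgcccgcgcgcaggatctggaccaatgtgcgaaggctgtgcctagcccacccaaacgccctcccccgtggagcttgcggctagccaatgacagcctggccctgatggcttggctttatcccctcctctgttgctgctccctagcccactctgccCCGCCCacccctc
Rab3c: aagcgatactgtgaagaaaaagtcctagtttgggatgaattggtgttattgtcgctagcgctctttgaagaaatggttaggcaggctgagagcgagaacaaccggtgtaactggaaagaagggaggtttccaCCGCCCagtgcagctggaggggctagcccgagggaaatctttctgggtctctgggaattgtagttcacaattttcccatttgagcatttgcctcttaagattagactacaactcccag
Syn1: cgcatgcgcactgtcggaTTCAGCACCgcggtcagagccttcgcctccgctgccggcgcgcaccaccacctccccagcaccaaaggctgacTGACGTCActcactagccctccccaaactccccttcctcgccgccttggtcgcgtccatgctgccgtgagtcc

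The upstream windows of the members were rich in G and C. Their median GC content was 61.2% with 13 CpG dinucleotides, against 52.4% and 6 over 32841 windows of all genes. A GC box stood in 24 of the 38 windows (63.2%), against 32.7% of all windows. The 38 windows come from 28 members, and windows of Syt6 overlap, so the same GC box can count more than once. The windows of all genes come from 27018 genes, whether or not they were tested here. Both Synpr and Rab3c had 1 GC box, beginning 13 bases before the Synpr start and 118 bases before the Rab3c start. The RE1 arm stood in 1 window (Syn1), against 0.301% of all windows, and so did the cyclic AMP response element, against 1.55%. The homeodomain core stood in 1 window, of Syt6, against 4.84% of all windows, and the TATA box in 3, of Rab3b and Sv2b, against 12.4%. The second annotated start of Synpr, at the end of chr14:13453708-13453957, held none of the 5 motifs. These matches describe letters in a window and not sites in use, and FPKM per gene does not tell which start a transcript came from.

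Synpr, which codes for synaptoporin, was the member that rose. Synaptoporin is a vesicle membrane protein related to synaptophysin and is known from hippocampal mossy fibre terminals and subsets of interneurons. The gene (ENSMUSG00000056296) spans chromosome 14 from 13284780 to 13616340 in GRCm38. Its level was 1.05 and 2.46 FPKM in wild-type and 10.1 and 10.5 FPKM in mutant cortex. The groups did not overlap, the mutants lay close together, and the wild types differed from each other by more than the mutants did. The log2 difference was 2.33 (SE 0.33, limma adjusted p = 0.0354), and the ratio of mean FPKM was 5.86. The call was lost without wild-type library 1 (adjusted p = 0.0603, log2 difference 1.86), without mutant library 1 (0.0807) and without mutant library 2 (0.115). It was also lost with every gene of the table tested (0.0981) and without the variance trend (0.0937). The annotated noncoding gene Gm5087, which begins on the opposite strand within the window shown above, was at 0.292 FPKM or less in every library.

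Synaptophysin, coded by Syp, is the abundant vesicle protein of the same family and lay the other way. Syp was 71.1 and 71.0 FPKM in wild-type and 56.6 and 55.7 FPKM in mutant cortex. Both mutants were below both wild types, and the libraries of each genotype were nearly equal (log2 difference -0.34, SE 0.06, limma adjusted p = 0.0540, just past the threshold). Of the summed Syp and Synpr level, Synpr made up 1.45% and 3.35% in the wild types and 15.1% and 15.8% in the mutants. The exact two-sided permutation test on that share gave p = 0.333, the smallest that 2 against 2 libraries allow. Syp shares 875 exon bases with the antisense gene Gm14703, and strand use is not stated, so reads of the overlap cannot be told apart.

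The other members of that family, the synaptogyrins, are also vesicle membrane proteins. Syngr3 was 30.4 and 25.9 FPKM in wild-type and 21.9 and 20.0 FPKM in mutant cortex (limma adjusted p = 0.135). Syngr1 overlapped between genotypes, from 18.3 to 22.6 FPKM in the 4 libraries. Syngr1 thereby went from 42.5% and 43.0% of the summed synaptogyrin level in wild types to 50.8% and 47.8% in mutants (exact two-sided permutation p = 0.333, the smallest possible).

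The synapsins, phosphoproteins that tether vesicles in the reserve pool, lay lower in the mutants by similar amounts without a call. Syn1, the most abundant, was 37.1 and 36.6 FPKM in wild-type and 33.5 and 28.5 FPKM in mutant cortex (log2 difference -0.25, SE 0.10, limma adjusted p = 0.259). All 3 synapsins had both mutants below both wild types, with differences from -0.30 to -0.25, Syn2 at 7.94 to 10.8 FPKM and Syn3 at 6.46 to 9.06 FPKM over the 4 libraries. Without mutant library 2 the Syn1 difference was -0.14, and with any other library left out it lay between -0.37 and -0.24. Their proportions did not separate by genotype: Syn1 made up 65.1% to 68.6% of the synapsin level over the 4 libraries. Syn1 and Syp lie on the X chromosome, and mutant library 1, the library with high Xist, had the higher mutant value of both. That library also had the higher mutant value in 27 of the 37 tested members. For Syp the mutant values were close, at 56.6 and 55.7 FPKM. Syn3 shares 1733 exon bases with Timp3 on the opposite strand.

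The SV2 proteins are vesicle glycoproteins that bind synaptotagmin. Sv2a made up 83.2% to 86.6% of the SV2 level over the 4 libraries. Its level was 38.4 and 35.1 FPKM in wild-type and 33.2 and 30.7 FPKM in mutant cortex (limma adjusted p = 0.290). Sv2b overlapped between genotypes at 4.598 to 6.36 FPKM. Sv2c was near the filter, at 0.423 to 1.05 FPKM.

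Rab3 proteins are small GTPases of the vesicle that bind the active zone protein RIM, and Rab3c was the member that fell. The gene (ENSMUSG00000021700) spans chromosome 13 from 110054187 to 110280996 in GRCm38, so the RefSeq window shown above lies inside the longest annotated span. Rab3c was 40.3 and 39.9 FPKM in wild-type and 27.6 and 24.7 FPKM in mutant cortex. Both mutants lay well below wild types that were nearly equal. The log2 difference was -0.61 (SE 0.08, limma adjusted p = 0.0344), a ratio of 0.653. The call was lost without wild-type library 1 (adjusted p = 0.157), wild-type library 2 (0.176) or mutant library 2 (0.0975). It was also lost with no filter (0.0765) and without the trend (0.107).

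Rab3a, the main isoform, was 139.8 and 124 FPKM in wild-type and 118 and 105 FPKM in mutant cortex (log2 difference -0.24, SE 0.09, limma adjusted p = 0.239). Rab3b was 10.6 to 15.1 FPKM over the 4 libraries. Rab3c went from 20.7% and 22.3% of the summed Rab3 level in wild types to 17.3% and 17.6% in mutants (exact two-sided permutation p = 0.333, the smallest possible).

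Synaptotagmins bind calcium or phospholipid on vesicles and other organelles, and Syt4 had the lowest difference of all tested members. Syt4, which lacks fast calcium sensing and sits on dense-core and other vesicles, was 151 and 115 FPKM in wild-type and 92.8 and 76.0 FPKM in mutant cortex. The groups did not overlap, but the wild types lay far apart. The log2 difference was -0.65 (SE 0.16, 95% interval -1.06 to -0.23), and the limma adjusted p was 0.122. Syt4 shares 566 exon bases with the antisense gene Gm26658, and strand use is not stated.

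The other synaptotagmins ranged from abundant to barely detected. Syt1, the fast calcium sensor of evoked release, overlapped between genotypes at 30.8 to 40.8 FPKM. Syt11 was 71.7 and 75.7 FPKM in wild-type and 68.8 and 71.0 FPKM in mutant cortex, a difference of -0.08 (95% interval -0.24 to 0.09). Syt5 was at 48.0 to 72.9 FPKM and Syt7, a slow sensor, at 13.7 to 18.7 FPKM, and in both genes both mutants were below both wild types. Syt6 overlapped at 8.23 to 12.1 FPKM. Syt2, the sensor of fast hindbrain and some inhibitory synapses, was at 0.692 to 1.37 FPKM, and Syt13 was at 0.929 to 1.29 FPKM. Syt17 did not pass the filter, at 0.231 to 0.545 FPKM. Doc2b, a calcium sensor linked to spontaneous release, was 3.28 and 2.41 FPKM in wild-type and 2.62 and 1.95 FPKM in mutant cortex.

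The SNARE genes were the most abundant role of the set, and none was called. Vamp2, which codes for the vesicle SNARE synaptobrevin, was 173 and 171 FPKM in wild-type and 161 and 144 FPKM in mutant cortex. Both mutants were lower, by -0.18 on the log2 scale (SE 0.07, 95% interval -0.36 to 0.00, limma adjusted p = 0.262), and by -0.10 without mutant library 2. Snap25, the plasma membrane partner, was 117 and 122 FPKM in wild-type and 113 and 98.3 FPKM in mutant cortex. Those groups did not overlap, but mutant library 1 lay close to the wild types.

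Among the remaining SNAREs, Snap47 was 109.7 and 105 FPKM in wild-type and 90.2 and 86.7 FPKM in mutant cortex (limma adjusted p = 0.0898). Snap47, a SNAP-25 relative found widely in the cell, shares 307 exon bases with Jmjd4 on the opposite strand. Stx1a, a plasma membrane syntaxin, was 27.6 and 28.7 FPKM in wild-type and 26.5 and 21.97 FPKM in mutant cortex. Vamp1, the synaptobrevin that dominates in spinal cord and brainstem, overlapped at 3.53 to 4.70 FPKM. Vamp2 made up 97.3% or more of the summed Vamp1 and Vamp2 level in all 4 libraries.

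The complexins Cplx1 and Cplx2 clamp and activate the SNARE complex. Cplx2 was 41.3 and 38.5 FPKM in wild-type and 29.5 and 25.1 FPKM in mutant cortex. The groups were clearly apart, with a log2 difference of -0.54 (SE 0.10, 95% interval -0.81 to -0.28) and a limma adjusted p of 0.0661. Cplx1 was 41.7 and 38.3 FPKM in wild-type and 33.3 and 31.6 FPKM in mutant cortex (log2 difference -0.30, limma adjusted p = 0.135). Both genes were thus at like levels in wild-type cortex, and the Cplx1 share of complexin RNA was 50.2% and 49.9% in wild types and 52.9% and 55.7% in mutants. Cplx3, the complexin of retinal ribbon synapses and subplate neurons, did not pass the filter. It was 0.0329 FPKM and listed at 0 in wild-type and 0.189 and 0.0553 FPKM in mutant cortex.

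**Figure D2:**
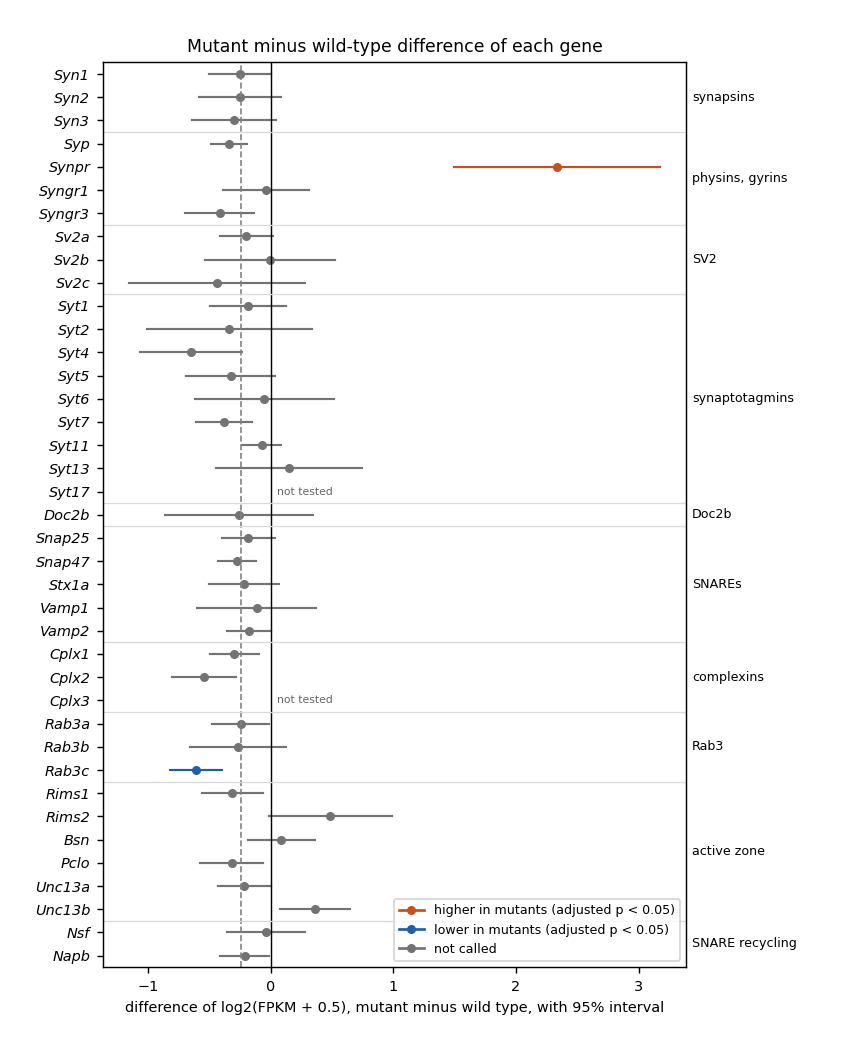
Difference of log2(FPKM + 0.5), mutant minus wild type, of each tested member with its 95% interval from limma, grouped by role; the dashed line is the median of the tested members. Synpr at 2.33 and Rab3c at -0.61 are the called genes, and 13 intervals lie wholly below 0 and 2 wholly above.

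The active zone genes lay on both sides of 0. They code for the scaffold at the release site (Rims1, Rims2, Bsn, Pclo) and for the Munc13 priming factors (Unc13a, Unc13b), and 3 of the 6 differences were above 0 and 3 below. No member of this role was called. Rims2 and Unc13b are singled out here after their values were seen.

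Among the Munc13 genes, Unc13a, the main priming factor of glutamatergic terminals, was 38.8 and 42.7 FPKM in wild-type and 36.3 and 33.7 FPKM in mutant cortex. The log2 difference was -0.22 (SE 0.08, limma adjusted p = 0.255). Unc13b lay the other way, with 26.5 and 23.2 FPKM in wild-type and 29.8 and 34.2 FPKM in mutant cortex (0.36, SE 0.11, limma adjusted p = 0.178). Neither pair of groups overlapped, and the Unc13b share of the pair was 40.6% and 35.2% in wild types and 45.1% and 50.4% in mutants. For that share the exact two-sided permutation p was 0.333, the smallest possible. Unc13a shares 495 exon bases with Colgalt1 on the opposite strand, a gene at 25.1 to 27.6 FPKM.

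A like split was seen between the RIM genes, which link Rab3, calcium channels and Munc13. Rims1 was 16.04 and 15.8 FPKM in wild-type and 12.2 and 13.3 FPKM in mutant cortex (log2 difference -0.31, limma adjusted p = 0.181). Rims2 was 6.17 and 4.30 FPKM in wild-type and 7.70 and 7.17 FPKM in mutant cortex (0.49, SE 0.20, limma adjusted p = 0.272). The difference was 0.25 without wild-type library 2 and 0.72 without wild-type library 1. The Rims2 share of the pair thus lay at 27.8% and 21.4% in wild types and 38.7% and 35.1% in mutants, with the same smallest exact permutation p of 0.333.

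Piccolo and bassoon, giant scaffold proteins that are often treated as a pair, also differed. Pclo was 12.8 and 12.3 FPKM in wild-type and 10.04 and 9.86 FPKM in mutant cortex (limma adjusted p = 0.184). Bsn overlapped between genotypes at 10.4 to 11.96 FPKM. Over the whole role the summed level was 109.5 to 110.8 FPKM in the wild types and 107 to 110.2 in the mutants, while the synaptotagmins summed to 312 and 367 FPKM in wild types and 254 and 274 in mutants.

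Nsf and Napb code for the ATPase and the neuronal adaptor that take SNARE complexes apart after fusion. Napb was 24.4 and 23.6 FPKM in wild-type and 20.4 and 20.9 FPKM in mutant cortex (log2 difference -0.21, SE 0.08, limma adjusted p = 0.229). Nsf overlapped between genotypes at 14.9 to 18.4 FPKM, a difference of -0.04 from limma.

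**Figure D3:**
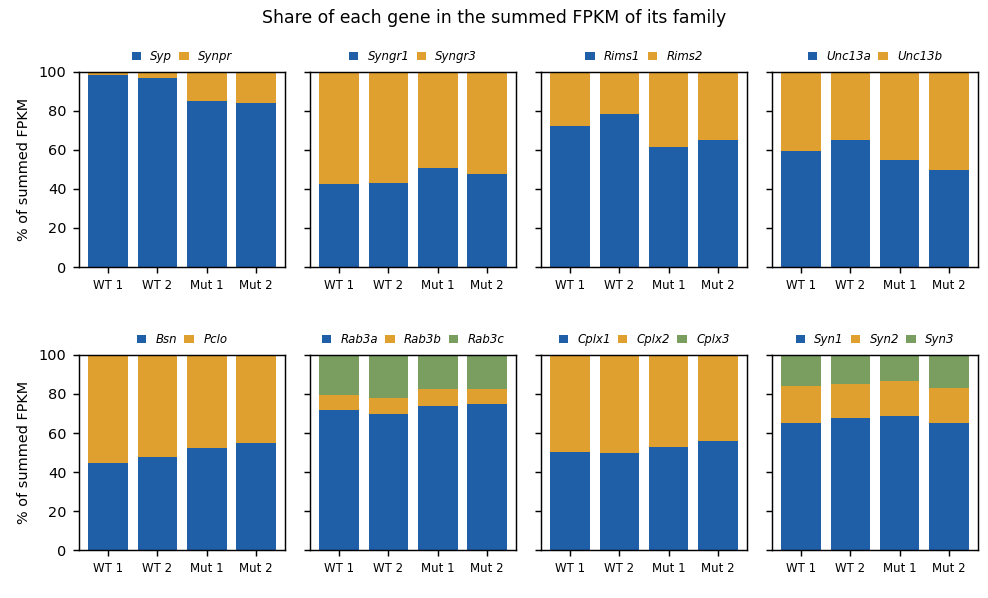
Share of each gene in the summed FPKM of its family, in percent, for 8 families in each of the 4 libraries. The Synpr share of Syp and Synpr is 1.45% and 3.35% in the wild types and 15.1% and 15.8% in the mutants, while the Syn1 share of the synapsins stays between 65.1% and 68.6%.

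The authors' deposited table gives its own comparison, whose test is not stated. A p-value under 0.05 stands in the authors' deposited table for 2 of the 39 members, Synpr (p = 0.0124, ratio 5.86) and Syt4 (p = 0.00144, ratio 0.634). That compares with 1.83% of its 22770 genes. For Rab3c the authors' deposited table has p = 0.115 with a ratio of 0.653. Synpr was thus the member that passed both there and in limma.

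Other vesicle genes, from lists that hold none of the 39, had medians closer to 0, and several of these lists also lay mostly lower in the mutants. Both mutants were below both wild types in 14 of 20 tested genes that fill vesicles (70.0%), beside 67.6% of the release machinery. Proton pump subunits made up 14 of those 20 genes and 11 of the 14 genes with lower mutants. Both mutants were also below both wild types in 13 of 27 genes of vesicle endocytosis (48.1%). The same held in 22 of 58 genes of release and its regulation (37.9%) and in 10 of 21 structural genes of neurons (47.6%). The share over all tested genes was 25.8%. An unadjusted limma p under 0.05 was seen in 9 of the 20 filling genes and 10 of the 21 structural genes. It was seen in 14 of the 58 genes of release and its regulation and 6 of the 27 of endocytosis. The release machinery had 15 of 37 (40.5%), and all tested genes 19.5%. Of the 58 tested genes of release and its regulation, 1 rose and 3 fell, with a median of -0.03, against 2.02% of all tested genes called higher and 1.46% called lower. Nrxn3, a presynaptic adhesion receptor of the neurexin family, was 7.20 and 6.999 FPKM in wild-type and 35.5 and 42.9 FPKM in mutant cortex, a rise of 2.38 (limma adjusted p = 0.00466). Ppfia2, which codes for the active zone protein liprin-alpha-2, fell from 23.1 and 23.4 FPKM to 14.4 and 13.5 FPKM (-0.72, limma adjusted p = 0.0281). Ppfia4, a related liprin gene, fell by 0.92 on the log2 scale (limma adjusted p = 0.0480).

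The third gene of that list to fall was Stxbp2, which codes for a syntaxin-binding protein of secretory cells, from 106 and 105 FPKM to 82.0 and 78.1 FPKM (-0.40, limma adjusted p = 0.0378). Of 27 tested genes of vesicle endocytosis 6 had an unadjusted limma p under 0.05, beside 19.5% of all tested genes. Among the 27, 0 were called by limma, and the median was -0.05. The most abundant of them, Ap2m1 of the clathrin adaptor, was 217 to 225 FPKM in all 4 libraries.

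Genes that fill vesicles were called in both directions. Of 20 tested, 2 rose and 2 fell, with a median of -0.14. Slc32a1, the vesicular GABA transporter, was 3.45 and 2.44 FPKM in wild-type and 11.7 and 12.4 FPKM in mutant cortex (limma adjusted p = 0.0197). Slc18a2, the vesicular monoamine transporter, rose by 2.94 on the log2 scale (limma adjusted p = 0.0160). Slc17a6, a vesicular glutamate transporter, fell by 2.06 on the log2 scale (limma adjusted p = 0.0134), and so did Slc6a17, a vesicular transporter of neutral amino acids, by 0.62 (limma adjusted p = 0.0323). Among these 20 genes were 14 proton pump subunits, which acidify the vesicle so that it can be filled. Of the 14, 0 were called by limma and 4 had an unadjusted limma p under 0.05, beside 19.5% of all tested genes. In 11 of the 14 both mutants lay below both wild types, against 25.8% of all tested genes. The median difference of the 14 was -0.14. Atp6v0c, the most abundant, overlapped between genotypes, at 232 and 186 FPKM in wild-type and 187 and 192 FPKM in mutant cortex.

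**Figure D4:**
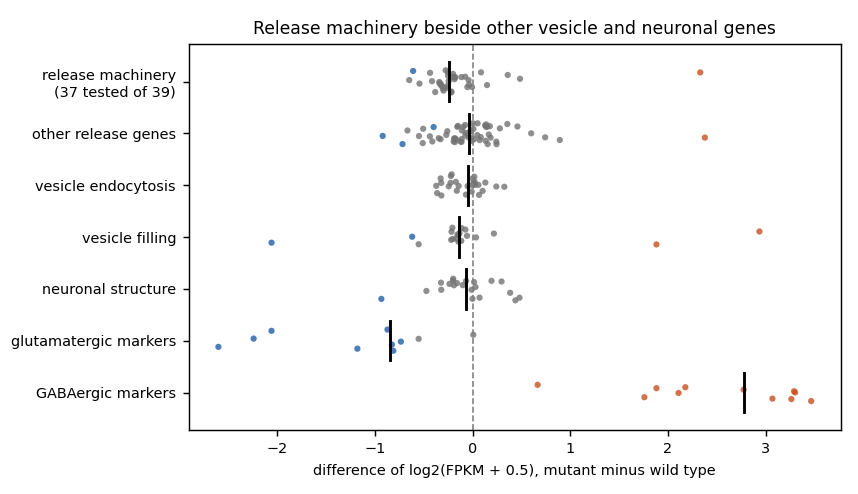
Difference of log2(FPKM + 0.5), mutant minus wild type, of each tested gene in 7 lists, with calls in orange (higher) and blue (lower), a black bar at each list's median and a dashed line at the median of all tested genes. The release machinery has its median at -0.24, other release genes at -0.03 and neuronal structural genes at -0.07.

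Markers of cell types moved with genotype beside these values. Over all tested genes 2.02% were called higher and 1.46% lower. All 11 GABAergic markers rose, with a median of 2.78, and they summed to 143.5 and 169 FPKM in wild-type and 829 and 952.5 FPKM in mutant cortex. Of 10 glutamatergic markers 8 fell, with a median of -0.85, and they summed to 746 and 663.5 FPKM in the mutants against the 1231 and 1319 FPKM given above. Of 8 progenitor markers 2 rose, the proliferation genes Mki67 and Top2a. The progenitor list was mixed, with 5 differences above 0, 3 below and a median of 0.11. Slc1a3 had the lowest, -0.60, without a call. All 8 markers of blood vessels had both mutants above both wild types, against 25.8% of all tested genes. The vessel markers had a median of 0.43 and sums of 68.7 and 64.8 FPKM in wild-type and 96.6 and 78.7 FPKM in mutant cortex. None of the 8 was called by limma (0), and 4 had an unadjusted limma p under 0.05, beside 19.5% of all tested genes. No marker of the glutamatergic and GABAergic lists was listed at 0 in any library. Of 21 structural genes of neurons in general 1 fell and 0 rose, and their median was -0.07. It was Rbfox3, the NeuN gene of maturing neurons, at 24.5 and 24.5 FPKM in wild-type and 13.8 and 11.5 FPKM in mutant cortex (limma adjusted p = 0.0281). With 1 library left out, calls over the vesicle and structural lists numbered 1 to 3 higher and 0 to 2 lower, against 3 and 6 with all libraries. The part of these shifts in the values of the release machinery was not tested. In bulk tissue, fewer cells of a type and less RNA per cell cannot be told apart.

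Some values carry an added uncertainty from how genes overlap. Of the 39 members, 12 share exon bases with another gene of the table, in each case on the opposite strand. Synpr and Rab3c share none.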

How the data were processed

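The authors deposited 1 table with an FPKM value per gene and library, per the file headers. It also holds the authors' group FPKM, a ratio of mutant over wild-type group values and a p-value, per the file headers. Tools named in the submitters' processing notes are Cufflinks 2.2.1, TopHat2 2.0.9 and edgeR, with builds GRCm38.p4 and mm10, but not which step used which. Scaling between libraries beyond FPKM, strand use and RNA selection are not given in the sources used here. FPKM keeps no totals, so intervals cover the spread between libraries only.

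Genes that reached 0.5 FPKM in 2 or more libraries were tested: values were transformed to log2(FPKM + 0.5) and fitted by genotype with limma 3.58.1 in R 4.3.3 (eBayes with a mean-variance trend, Benjamini-Hochberg adjustment over all tested genes, threshold 0.05, two-sided). The pseudocount understates differences of low genes. The fit was tested on simulated data. The 39 members and all gene lists were chosen with earlier results of these data known. Values per library are given for called members, the most abundant member of each role and members with a log2 difference of at least 0.5 in size, and for some others, with ranges for the rest. Of the other vesicle lists the called genes and the most abundant are named. Positions are from GENCODE M21 (GRCm38), counted from 1, and upstream sequences are from RefSeq. Alternatives covered the pseudocount, filter, variance model, scaling, replicate number and each library left out.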

Additional observations from a re-analysis of the deposited data

How the results depend on the processing

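With no filter on low values or without the trend, 0 members were called higher and 0 lower, and the genes called over the whole table fell from 311 higher and 225 lower to 40 and 21 (no filter) and 34 and 20 (no trend). In the other vesicle and neuronal lists, 3 genes were called higher and 6 lower, and both of those settings gave 1 higher and 0 lower. The robust variance model called 2 members lower, adding Syp (adjusted p = 0.0476). Under a replicate block 2 members were called lower, adding Syt4 (limma adjusted p = 0.0304), and the other lists had 3 genes lower. The correlation of same-numbered libraries' deviations was 0.0492 over all tested genes. The labels tie no litter or batch to the replicate number, and 2 pairs cannot settle whether the libraries were paired. Leaving out 1 library gave 0 to 1 members higher and 0 to 1 lower, 34 to 180 genes higher and 13 to 165 lower over the table, 1 to 3 higher and 0 to 2 lower in the other lists, and a median of -0.30 to -0.14 for the members; 29 to 31 members then lay below 0. Each such fit leaves a group with 1 library, assumed to vary like the other group. Near-zero differences changed sign: Sv2b was 0.0005 when rescaled without mitochondrial genes, and with 1 library left out Sv2b ran from -0.22 to 0.21, Nsf from -0.18 to 0.11, Syngr1 from -0.19 to 0.11, Syt6 from -0.32 to 0.21 and Vamp1 from -0.297 to 0.0698. The other settings (pseudocounts of 0.1 and 1, a filter of 1 FPKM, median and quantile scaling) kept the calls of Synpr and Rab3c, with 31 to 32 members below 0. The counts below 0 and in the other lists were added after the data were seen. Values under about 0.5 FPKM rest on few fragments.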
